A study of Mus musculus with 8 samples.

Results

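The Ainv18ko line, a mouse embryonic stem cell line in which Runx1 is knocked out, was compared with the BryGFP line, which has functional Runx1, in hemogenic endothelium made from both lines in culture. All 622 genes of the deposited table were described in the 2 libraries of Ainv18ko and the 2 libraries of BryGFP, 4 of the 8 libraries in the table. Both lines are labelled as strain 129, and each is a single line, so genotype and line cannot be told apart between them. In both, FLK1-positive mesoderm cells were isolated from early embryoid bodies, grown for 2 days in liquid blast medium with VEGF and IL6, and sorted for the surface proteins cKIT and TIE2 and against CD41. No other treatment was given in the labels. The remaining 4 libraries, 2 of the knockout line iDamko and 2 of the wild type line iDam, served only as a second pair of lines. Total RNA without ribosomal RNA was sequenced on a SOLiD instrument, and values are RPKM, reads scaled by gene length and library size. Reads implied by the steps of the lowest values came to 44420000 and 42380000 for Ainv18ko, and to 44460000 and 51900000 for BryGFP, the first of which is uncertain, since the steps came out whole more often at a lower depth. Kit, Tek and Itga2b, which encode the sorted surface proteins, and Runx1 itself were not analysed here, so neither the knockout nor the gate was checked at the RNA level.

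RUNX1 is a transcription factor that binds DNA together with CBFB and is needed for blood cells to emerge from hemogenic endothelium, a step called the endothelial-to-hematopoietic transition. During this step flat, adherent endothelial cells round up, lose endothelial genes, detach and start to express blood genes. The transcriptional repressors GFI1 and GFI1B act below RUNX1 in shutting down endothelial genes. The series asks which adhesion and migration genes depend on RUNX1 before blood emerges.

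Same-numbered libraries of the 2 knockout lines lay closer to each other than the 2 libraries of Ainv18ko did. Over the 360 genes averaging 1 RPKM or more in the 8 libraries, the median absolute difference in log2(RPKM + 1) was 0.294 between Ainv18ko 1 and 2, 0.136 between Ainv18ko 1 and iDamko 1, and 0.138 between Ainv18ko 2 and iDamko 2. The 2 BryGFP libraries differed by 0.223, and libraries of Ainv18ko and BryGFP by 0.922 to 1.146. The labels do not say what the library number stands for in the cell culture or the sequencing.

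All 622 genes had the 2 Ainv18ko libraries entirely on one side of the 2 BryGFP libraries: 235 genes (37.8%) were higher in Ainv18ko and 387 (62.2%) were lower. The authors had selected every gene for a difference between the knockout lines, Ainv18ko included, and each wild type line, so 100% of rows separated and this count is a property of the table. The genes higher in Ainv18ko had a median fold of 2.56 with quartiles of 1.95 and 3.96, and 62 were at least 4-fold higher. The lower genes reached further, with a median of 3.97-fold, quartiles of 2.57 and 8.85, and 208 genes at least 4-fold lower. Of the lower genes 79 were at least 16-fold lower, and 13 of the higher genes were at least 16-fold higher. The counts at 4-fold and 16-fold include 29 lower genes listed at 0 in both Ainv18ko libraries and 5 higher genes listed at 0 in both BryGFP libraries. These genes have no finite fold and are left out of the medians and quartiles. In 540 genes, 183 higher and 357 lower, the nearest libraries of the 2 lines were still at least 1.5-fold apart.

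The size of each difference was set against the spread between libraries with limma on log2(RPKM + 1) for the 360 genes that passed the filter on low values. At a Benjamini-Hochberg adjusted p under 0.05, 354 of the 360 (98.3%) were called, 152 higher (42.2%) and 202 lower (56.1%) in Ainv18ko. Because the genes were preselected on these libraries, these adjusted p-values describe size against spread and are not independent evidence of a change. The median log2 difference over the 360 genes was −0.70. Forcing the 8 libraries to a common distribution by quantile normalization, called equalised distributions below, moved it by 0.73, to 0.02. The normalization saw only selected genes, more of them lower than higher, so a shift of the median towards 0 follows from the method. A lower gene that loses its call or turns round there is thus not shown to be unchanged. The 6 genes not called were Epb4.9, Zfp618, Tmem20, U4, Snord69 and SNORD19B, with adjusted p-values of 0.0669, 0.137, 0.0568, 0.0803, 0.0841 and 0.0716. The small nuclear RNA U4 was at 8.82 and 9.25 RPKM in Ainv18ko, against 64.8 and 11.7 in BryGFP, and BryGFP library 1 set its mean. Of the 354 calls, 230 (82 higher, 148 lower) were also made after leaving out each of the 4 libraries in turn. Bulk RNA was measured, so fewer cells of a type and less RNA per cell cannot be told apart for any gene described here.

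Integrin genes were lower in Ainv18ko in 3 of the 4 rows of the table, where 62.2% of all rows were lower. Itgb3, the beta subunit shared by the vitronectin receptor and the platelet fibrinogen receptor, was at 0.318 and 0.165 RPKM in Ainv18ko, against 6.59 and 7.9 in BryGFP, a 30-fold lower mean (log2 difference −2.73 ± 0.19 SE, limma adjusted p = 3.31e-06). Both Ainv18ko libraries were under 1 RPKM and far from both BryGFP libraries. Itga3, a laminin-binding alpha subunit, was at 4.45 and 4.36 RPKM in Ainv18ko, against 21.5 and 28.4 in BryGFP (log2 difference −2.25 ± 0.22, limma adjusted p = 2.41e-05). Itgb5, another partner of the alpha-V subunit, was at 2.82 and 2.44 RPKM in Ainv18ko, against 8.35 and 12.2 in BryGFP and fell by 3.91-fold. Itgb2, the leukocyte integrin beta subunit, went the other way at 3.41 and 1.34 RPKM in Ainv18ko, against 0.655 and 0.33 in BryGFP (log2 difference 1.11 ± 0.37, limma adjusted p = 0.0177), with the first Ainv18ko library well above the second. Without Ainv18ko library 1, BryGFP library 1 or BryGFP library 2 the Itgb2 call was lost, at adjusted p-values of 0.127, 0.054 and 0.113. Of the 26 integrin genes looked for, only these 4 were in the table.

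Integrin adaptors and actin regulators were in the table with 7 of 56 genes. Of these 5 were tested, 2 called higher and 3 called lower, around a median log2 difference of −1.16. The shares over all tested genes were 42.2% called higher and 56.1% called lower. Fermt3, the blood cell kindlin that activates integrins, was at 99.3 and 61.5 RPKM in Ainv18ko, against 31.7 and 27.2 in BryGFP (log2 difference 1.38 ± 0.37, limma adjusted p = 0.00727). Without BryGFP library 2 its adjusted p was 0.0587. Ptk2b, a kinase of the focal adhesion kinase family, was at 3.34 and 3.23 RPKM in Ainv18ko, against 1.09 and 1.02 in BryGFP and was also higher. Ptk2b lies on chromosome 14, where 69 of the 73 genes in the table were higher. Gsn, the actin-severing protein gelsolin, was at 0.829 and 1.2 RPKM in Ainv18ko, against 5.29 and 8.94 in BryGFP (log2 difference −1.98 ± 0.27, limma adjusted p = 0.000178). The myosin light chain Myl9 was at 6.68 and 10.6 RPKM in Ainv18ko, against 24.7 and 25.8 in BryGFP, and the focal adhesion scaffold Nedd9 at 0.576 and 1.35 RPKM in Ainv18ko, against 2.47 and 4.32 in BryGFP. Both fell, and Nedd9 lost its call without BryGFP library 2 (adjusted p = 0.05) and under equalised distributions (0.274). Was, the actin nucleation regulator of blood cells, and Lcp2, an adaptor of immune receptor signalling, were below the filter, with Was at 0.399 and 0.229 RPKM in Ainv18ko, against 1.31 and 1.98 in BryGFP and Lcp2 at 0.156 and 0.0373 RPKM in Ainv18ko, against 0.687 and 0.69 in BryGFP.

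All 3 cell-cell adhesion genes in the table, of 43 looked for, were called lower, as were 56.1% of all tested genes. Once the library distributions were equalised, 2 of the 3 lost the call, 1 with its direction. Cdh11, a mesenchymal cadherin, was at 1.91 and 1.15 RPKM in Ainv18ko, against 12.8 and 19.8 in BryGFP, 10.7-fold lower (log2 difference −2.76 ± 0.25, limma adjusted p = 1.77e-05). Cldn5, the tight junction claudin of endothelium, was at 3.44 and 1.99 RPKM in Ainv18ko, against 5.82 and 8.45 in BryGFP, 2.63-fold lower, with a gap of 1.69-fold between the nearest libraries. Clec14a, an endothelial C-type lectin, was at 2.61 and 2.89 RPKM in Ainv18ko, against 4.08 and 5.57 in BryGFP (log2 difference −0.63 ± 0.23, limma adjusted p = 0.0248), a small difference that was 0.02 under the equalised distributions. Leaving out BryGFP library 2 ended the call for Cldn5 (adjusted p = 0.0558) and Clec14a (0.157), and leaving out Ainv18ko library 1 or 2 ended it for Clec14a (0.0949 and 0.0645).

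Of the genes of the extracellular matrix, all 7 structural genes in the table, of 67 looked for, and 12 of 13 protease and inhibitor genes, of 58, were lower in Ainv18ko, where 62.2% of all rows were lower. Of those tested, 5 of 5 structural genes were called lower around a median of −0.98, and 8 of 9 protease and inhibitor genes around a median of −1.17, where 98.3% of all tested genes were called and their median was −0.70. Col5a1, a fibrillar collagen chain, was at 8.61 and 7.68 RPKM in Ainv18ko, against 32.6 and 43.3 in BryGFP (log2 difference −2.08 ± 0.22, limma adjusted p = 3.78e-05). The elastic fibre gene Fbn2 was at 12.3 and 6.26 RPKM in Ainv18ko, against 25.2 and 24.5 in BryGFP, and the fibulin Fbln2 at 3.26 and 3.71 RPKM in Ainv18ko, against 7.57 and 6.91 in BryGFP. These genes differed by about as much as the median of the table or more, and Fbln1 (3.27 and 1.36 RPKM in Ainv18ko, against 5.16 and 5.35 in BryGFP) and Fbln2 kept no call under equalised distributions. Mmp2, a gelatinase that cleaves basement membrane collagen, was at 6.39 and 3.73 RPKM in Ainv18ko, against 22.3 and 20.5 in BryGFP (log2 difference −1.92 ± 0.24, limma adjusted p = 0.000122). Plau, the urokinase that activates plasminogen, was at 2.45 and 2.57 RPKM in Ainv18ko, against 6.81 and 12.8 in BryGFP, and the metalloproteinase inhibitors Timp2 and Timp3 fell by 2.92-fold and 2.49-fold. The lysosomal protease gene Ctsb was the 1 higher member, at 18.5 and 16.8 RPKM in Ainv18ko, against 10.9 and 12.2 in BryGFP. Ctsb lies on chromosome 14, where 69 of the 73 genes in the table were higher. Adamts7 and Serpine2, called lower, and Htra1, which was not tested, turned round under equalised distributions. Fbln1 lost its call without Ainv18ko library 2 and without either BryGFP library (adjusted p = 0.0548 to 0.102), Adamts7 without Ainv18ko library 2 (0.109) or BryGFP library 2 (0.0869), Ctsb without the first library of either line (0.07 and 0.0843), and Serpine2 without any 1 of the 4 (0.0632 to 0.13).

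Guidance and angiogenic genes went both ways, with 4 higher and 8 lower of 12 in the table, where 62.2% of all rows were lower. The netrin receptor Unc5c was at 3.81 and 3.83 RPKM in Ainv18ko, against 23.4 and 20.7 in BryGFP (log2 difference −2.26 ± 0.23, limma adjusted p = 3.66e-05), and the ephrin receptor Ephb2 at 1.36 and 0.841 RPKM in Ainv18ko, against 6.97 and 9.3 in BryGFP. Slit2, a ligand of ROBO receptors, was at 1.14 and 1.39 RPKM in Ainv18ko, against 4.34 and 6.02 in BryGFP, 4.09-fold lower. In all 3 the lines lay well apart. Aplnr, the apelin receptor of mesoderm and endothelium, was at 13.2 and 4.41 RPKM in Ainv18ko, against 30.9 and 30.1 in BryGFP (log2 difference −1.84 ± 0.40, limma adjusted p = 0.00273). Its Ainv18ko libraries differed by more than 2-fold while its BryGFP libraries nearly coincided. Epha7 and the basement membrane netrin Ntn4 were the 2 tested members that rose, by 2.81-fold and 3.38-fold, and Ntn4 lost its call without Ainv18ko library 2 (adjusted p = 0.0928) or BryGFP library 1 (0.0841).

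Transcription factors of blood were lower in all 4 cases in the table, of 41 looked for, where 62.2% of all rows were lower. Of the 4, 2 passed the filter. Gfi1 (chromosome 5, 107716657 to 107726036, GRCm38) was at 0.287 and 0.368 RPKM in Ainv18ko, against 4.84 and 4.48 in BryGFP, 14.2-fold lower (log2 difference −2.09 ± 0.17, limma adjusted p = 7.03e-06). Ikzf2, a zinc finger factor of the Ikaros family, was at 0.98 and 0.476 RPKM in Ainv18ko, against 2.81 and 3.77 in BryGFP (log2 difference −1.32 ± 0.27, limma adjusted p = 0.00195), a call lost under equalised distributions. The lymphoid and stem cell factor Gata3 was at 0.491 and 0.0984 RPKM in Ainv18ko, against 1.12 and 0.94 in BryGFP. Hoxa9 was close to 0 in Ainv18ko, at 0.00174 and 0 RPKM, against 0.255 and 0.138 in BryGFP. Among genes of blood and immune signalling, Csf1, the macrophage growth factor, was at 5.69 and 4.19 RPKM in Ainv18ko, against 14.6 and 19.7 in BryGFP (log2 difference −1.61 ± 0.23, limma adjusted p = 0.000292), and the interleukin receptor Il4ra at 8.36 and 8.3 RPKM in Ainv18ko, against 16.9 and 14.4 in BryGFP. Il1r1, the interleukin-1 receptor, rose by 2.01-fold, a call lost without Ainv18ko library 1 (adjusted p = 0.0546) or BryGFP library 2 (0.0539). For Gfi1, the authors' deposited table gives 16.1-fold lower levels in the knockout lines than in BryGFP with an FDR of 3.90e-36. That comparison pooled the 2 Ainv18ko with the 2 iDamko libraries.

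RUNX proteins bind the letters TGTGGT, and the 6 letters were searched on both strands (TGTGGT or ACCACA) in RefSeq promoter windows of GRCm38.p6, from 250 bases before to 50 bases after each annotated start. A window with the letters was found for 40 of the 230 lower genes matched by symbol (17.4%), for 26 of 170 matched higher genes (15.3%), and for 5113 of 27025 genes in the promoter table (18.9%). The letters were thus no more frequent in the windows of either group than in all promoters. The windows of Was and of the downstream annotated start of Itga3 hold 1 match each, shown here in capitals because both genes belong to the adhesion and actin groups above, while those of Gfi1, Csf1 and Lcp2 hold none. These windows were picked after the search and mark no measured binding.
Was, chrX:8090442-8090741, minus strand: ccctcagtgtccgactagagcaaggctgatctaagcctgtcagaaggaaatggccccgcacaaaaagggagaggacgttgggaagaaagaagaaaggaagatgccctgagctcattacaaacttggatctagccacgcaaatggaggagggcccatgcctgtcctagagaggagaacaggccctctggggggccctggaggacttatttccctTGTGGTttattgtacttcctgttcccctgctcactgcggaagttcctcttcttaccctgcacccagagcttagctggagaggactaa
Itga3, chr11:95069149-95069448, minus strand: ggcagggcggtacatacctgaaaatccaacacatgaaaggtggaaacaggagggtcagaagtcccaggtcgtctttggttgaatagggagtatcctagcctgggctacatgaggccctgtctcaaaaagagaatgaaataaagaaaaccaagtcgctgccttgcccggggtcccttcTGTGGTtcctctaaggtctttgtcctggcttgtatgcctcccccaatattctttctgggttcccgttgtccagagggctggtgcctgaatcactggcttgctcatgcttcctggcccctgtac
The capitals begin 37 bases before the annotated start in Was and 73 bases before it in Itga3.

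Signalling pathways that pattern mesoderm differed gene by gene. Fst (chromosome 13, 114452290 to 114458951, GRCm38), the secreted follistatin that neutralises activin, was at 12.8 and 37.7 RPKM in Ainv18ko, against 0.434 and 0.335 in BryGFP, 65.7-fold higher (log2 difference 4.06 ± 0.45, limma adjusted p = 4.78e-05). The second Ainv18ko library was well above the first, and both were far above BryGFP. Bmp4, the ventral mesoderm growth factor, was at 5.49 and 3.28 RPKM in Ainv18ko, against 22.2 and 37.7 in BryGFP (log2 difference −2.51 ± 0.31, limma adjusted p = 0.000108), and the related ligand Bmp5 at 0.148 and 0.115 RPKM in Ainv18ko, against 1.16 and 1.5 in BryGFP. Bmper, an extracellular BMP-binding protein, rose, at 6.52 and 10.1 RPKM in Ainv18ko, against 2.58 and 2.01 in BryGFP. The pseudoreceptor Bambi was at 3.45 and 4.22 RPKM in Ainv18ko, against 9.2 and 10.4 in BryGFP, 2.56-fold lower, and the endothelial receptor Acvrl1, also known as ALK1, fell by 1.87-fold. In all, 2 of 6 tested genes of the BMP, TGF-beta and activin pathway were called higher and 4 lower. The shares over all tested genes were 42.2% called higher and 56.1% called lower. Of the Notch genes, the ligand Jag2 was higher, at 6.2 and 4.32 RPKM in Ainv18ko, against 2.24 and 1.57 in BryGFP, while the fringe enzyme Mfng, at 0.211 and 0.0928 RPKM in Ainv18ko, against 0.793 and 1.29 in BryGFP, and the Notch target Nrarp, at 3.56 and 2.92 RPKM in Ainv18ko, against 6.24 and 5.25 in BryGFP, were lower. Both lower calls were lost under equalised distributions, that of Mfng also without BryGFP library 2 (adjusted p = 0.0582), and that of Nrarp without Ainv18ko library 2 (0.0882) or BryGFP library 1 (0.0848).

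The Wnt genes were split as well, with 4 of 8 rows higher, 2 of them rows of Fzd10, where 37.8% of all rows were higher. Of the 5 tested rows, 3 were called higher, the 2 of Fzd10 and that of the chromosome 14 gene Fzd3, and 2 lower. Their median log2 difference of 0.66 was the value of Fzd3 and counts Fzd10 on both rows. The lower receptor Fzd1 lost its call under equalised distributions (limma adjusted p = 0.808). There its difference turned round over the 360 tested genes and kept its direction over all 622. The ligand Wnt2 was at 0.432 and 0.156 RPKM in Ainv18ko, against 2.07 and 2.17 in BryGFP (log2 difference −1.28 ± 0.18, limma adjusted p = 0.000244). Wnt16 was at 0.324 and 1.38 RPKM in Ainv18ko, against 0.00676 and 0.017 in BryGFP, its Ainv18ko libraries well apart. The receptor Fzd10 stood in the table on 2 rows that overlap in name and may share reads, the coding row at 30 and 19.1 RPKM in Ainv18ko, against 12.2 and 8.44 in BryGFP. Of the cell cycle genes, Ccnd1, encoding cyclin D1, was at 5.84 and 10.7 RPKM in Ainv18ko, against 33.4 and 36.6 in BryGFP (log2 difference −2.01 ± 0.58, limma adjusted p = 0.00964), and Cdkn2a, which encodes the INK4A and ARF inhibitors, at 1.31 and 2.74 RPKM in Ainv18ko, against 5.74 and 13.1 in BryGFP. A cyclin and an inhibitor thus both fell, and leaving out Ainv18ko library 1, BryGFP library 1 or BryGFP library 2 ended the Ccnd1 call, at adjusted p-values of 0.0527, 0.0535 and 0.0657.

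Hox genes and Cdx2, which set position along the body axis, were lower in all 17 rows of the table on the deposited values, 7 of them in the HoxB cluster, 6 in HoxD and 3 in HoxA, and the rows that turned round when distributions were equalised included Hoxa5 and Hoxd10. Most were weakly expressed, and 6 were tested and called lower. Cdx2, the caudal homeobox factor that acts above Hox genes, was at 0.0996 and 0 RPKM in Ainv18ko, against 2.03 and 3.14 in BryGFP. Hoxb2 was at 1.87 and 0.521 RPKM in Ainv18ko, against 6.67 and 4.37 in BryGFP (log2 difference −1.62 ± 0.31, limma adjusted p = 0.00136), and Hoxd8 at 3.16 and 2.48 RPKM in Ainv18ko, against 8.78 and 8.76 in BryGFP (log2 difference −1.36 ± 0.25, limma adjusted p = 0.00118). In all 7 HoxB genes the second Ainv18ko library was the lowest of the 4, as for Hoxb6 at 0.274 and 0.0137 RPKM in Ainv18ko, against 2.23 and 2.17 in BryGFP, and Hoxb9 at 0.0346 and 0.00458 RPKM in Ainv18ko, against 0.714 and 1.02 in BryGFP.

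Marker genes of other cell types that the sorted cells could hold moved in several directions. Erythroid genes were higher in 4 of 4 rows, of 29 genes looked for, where 37.8% of all rows were higher. All 4 were called, as were 98.3% of all tested genes. Alas2, the first enzyme of heme synthesis in red cells, was at 12.4 and 7.2 RPKM in Ainv18ko, against 1.65 and 2.28 in BryGFP (log2 difference 1.83 ± 0.31, limma adjusted p = 0.000764). Spnb1, erythroid beta-spectrin, now named Sptb, was at 21.8 and 21.3 RPKM in Ainv18ko, against 2.55 and 3.76 in BryGFP (log2 difference 2.46 ± 0.26, limma adjusted p = 4.10e-05). The transferrin receptor Tfrc was at 55.5 and 71.2 RPKM in Ainv18ko, against 28.3 and 33.7 in BryGFP, 2.04-fold higher, and carbonic anhydrase Car2 was at 57.5 and 41.3 RPKM in Ainv18ko, against 29.1 and 31.7 in BryGFP. The Car2 difference was the smallest of the 4 and lost its call under equalised distributions (adjusted p = 0.0667) and without Ainv18ko library 1 or either BryGFP library (0.0718 to 0.145). The 4 genes summed to 147.3 and 141 RPKM in Ainv18ko, against 61.6 and 71.4 in BryGFP, and Tfrc and Car2 made up most of each sum.

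Endothelial genes were lower in 4 of 4 rows, of 44 looked for, where 62.2% of all rows were lower. Their sums were 27.8 and 14.7 RPKM in Ainv18ko, against 53.3 and 57.8 in BryGFP. The 4 genes were Aplnr, Cldn5, Acvrl1 and Clec14a, described above, of which Clec14a turned round under equalised distributions. Genes of smooth muscle and mesenchyme were lower in 4 of 4 rows, of 30 looked for, where 62.2% of all rows were lower. The weakest, Cspg4, was not tested and turned round under equalised distributions. Acta2, smooth muscle actin, was at 72.8 and 48.7 RPKM in Ainv18ko, against 446 and 633 in BryGFP (log2 difference −3.14 ± 0.29, limma adjusted p = 1.82e-05). Pdgfrb, the mural cell receptor for PDGF-B, was at 1.42 and 0.684 RPKM in Ainv18ko, against 10.4 and 14.7 in BryGFP (log2 difference −2.73 ± 0.30, limma adjusted p = 4.72e-05). Summed over the 4 genes, this RNA was at 80.95 and 60.1 RPKM in Ainv18ko, against 481.4 and 673.9 in BryGFP. The share of mesenchymal cells in each sort, and its part in the lower adhesion and matrix genes, was not tested.

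Cardiac genes were higher in 5 of 7 rows, where 37.8% of all rows were higher. Of the 5 tested, 4 were called higher, as were 42.2% of all tested genes. The 2 lower rows were Hand1 and Isl1, and Isl1 was below the filter. The authors' comparison of the pooled knockout lines with BryGFP gives Isl1 a 16.8-fold lower level. Gata4, a factor of heart and endoderm, was at 44.8 and 42.1 RPKM in Ainv18ko, against 14.5 and 10.6 in BryGFP (log2 difference 1.73 ± 0.22, limma adjusted p = 0.000129). The troponin genes Tnnt2 and Tnni1 rose by 2.82-fold and 3.09-fold, and Hand2 was at 40.3 and 22.8 RPKM in Ainv18ko, against 16.6 and 10.3 in BryGFP. Hand1, a factor of extraembryonic and lateral mesoderm, moved the opposite way from Hand2, at 1.99 and 0.575 RPKM in Ainv18ko, against 16.7 and 21.6 in BryGFP (log2 difference −3.21 ± 0.38, limma adjusted p = 9.08e-05). Genes named for neurons were higher in 3 of 3 rows, where 37.8% of all rows were higher. The neurofilament gene Nefl was at 28.8 and 39 RPKM in Ainv18ko, against 5.44 and 2.94 in BryGFP (log2 difference 2.78 ± 0.35, limma adjusted p = 0.000132), and the tubulin Tubb3 at 29.1 and 70.7 RPKM in Ainv18ko, against 18.1 and 15 in BryGFP (log2 difference 1.41 ± 0.48, limma adjusted p = 0.0184). Without Ainv18ko library 2 or either BryGFP library the Tubb3 call was lost (adjusted p = 0.0711 to 0.147), and without Ainv18ko library 1 or BryGFP library 2 that of Hand2 (0.145 and 0.176). Tnni1 lost its call without Ainv18ko library 1 or either BryGFP library (adjusted p = 0.0823 to 0.121). Foxa2, an endoderm factor, was at 1.26 and 2.94 RPKM in Ainv18ko, against 0.171 and 0.402 in BryGFP, and Dab2, an endocytic adaptor listed with endoderm, fell to 3.15 and 1.21 RPKM in Ainv18ko, against 3.94 and 6.13 in BryGFP, a call lost without the second library of either line (adjusted p = 0.182 and 0.154). The pluripotency gene Dppa4 was at 1.32 and 2.1 RPKM in Ainv18ko, against 7.24 and 11.7 in BryGFP. The 2 myeloid genes in the table, of 30 looked for, went opposite ways. The macrophage lysozyme Lyz2 was under 1 RPKM in both lines and was not tested. It was lower in Ainv18ko, at 0.0171 and 0 RPKM, against 0.651 and 0.719 in BryGFP. Itgb2, described with the integrins, was higher in Ainv18ko. The part of these cell types in any other difference was not tested.

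**Figure D1:**
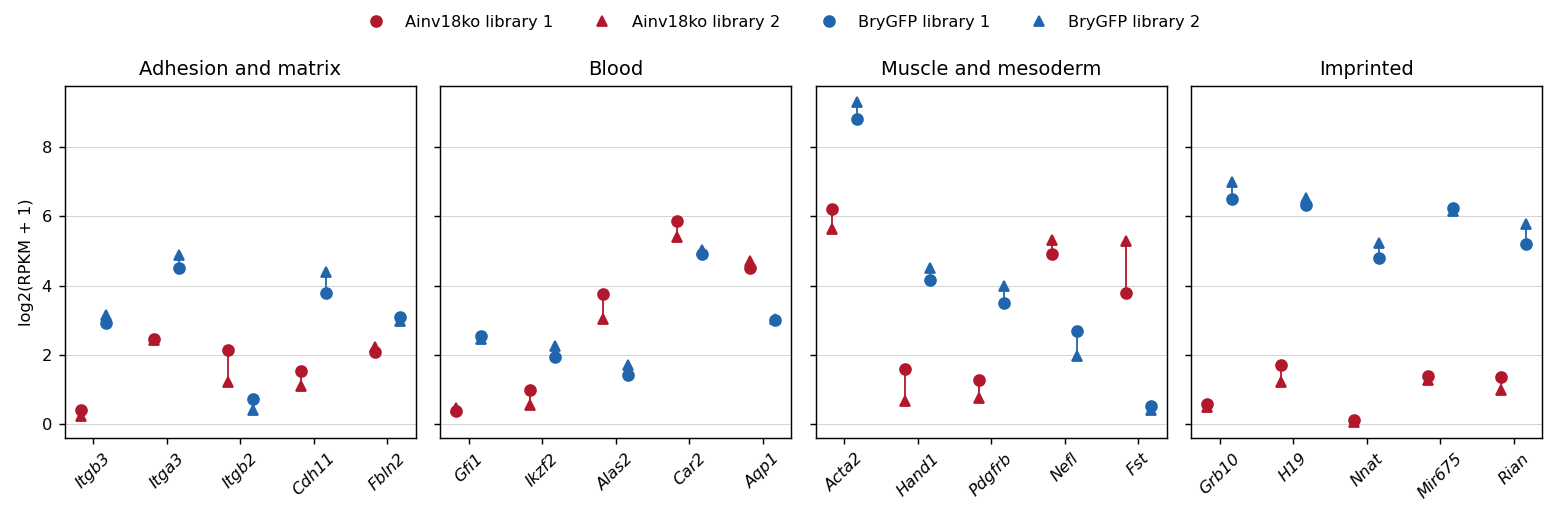
Log2(RPKM + 1) of 20 genes in each library, with Ainv18ko (red) left of BryGFP (blue), circles for library 1 and triangles for library 2, and a line joining the 2 libraries of a line. Itgb3, Gfi1, Acta2 and the 5 imprinted genes leave a wide gap between the lines, Fst and Nefl a gap in the other direction, and Fst, Itgb2 and Alas2 show the distance between the 2 Ainv18ko libraries.

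**Figure D2:**
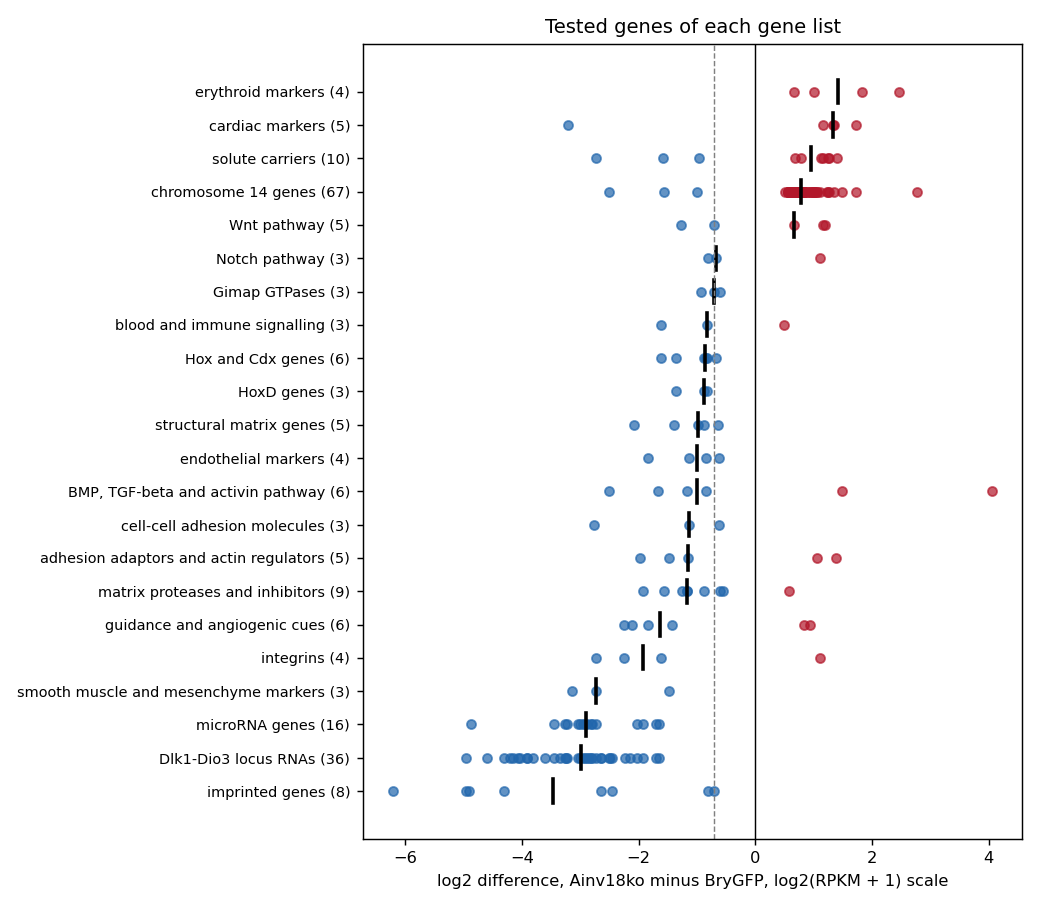
Log2 difference of Ainv18ko minus BryGFP on the log2(RPKM + 1) scale for the tested genes of each list with at least 3, 1 point a gene, filled where called, with the number tested in brackets. Black bars are list medians, the dashed line is the median of −0.70 over all 360 genes, and erythroid, cardiac and chromosome 14 genes lie mostly right of 0 while imprinted genes, microRNAs and Dlk1-Dio3 RNAs lie furthest left.

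The largest differences of the comparison were at imprinted genes, which are expressed from the copy of one parent. Of the 76 imprinted genes looked for, 11 were in the table, all lower, where 62.2% of all rows were lower. The 8 tested were called lower, as were 56.1% of all tested genes. Their median log2 difference was −3.48, against −0.70 over all tested genes. Magel2 and Peg12 turned round under equalised distributions. Grb10 (chromosome 11, 11930508 to 12038683, GRCm38), an adaptor that restrains insulin and growth factor receptors, was at 0.489 and 0.411 RPKM in Ainv18ko, against 89.9 and 126 in BryGFP, 239.9-fold lower (log2 difference −6.21 ± 0.25, limma adjusted p = 3.34e-07). Nnat, the small membrane protein neuronatin, was at 0.0929 and 0.0434 RPKM in Ainv18ko, against 26.6 and 36.5 in BryGFP, 463-fold lower (log2 difference −4.91 ± 0.25, limma adjusted p = 6.90e-07). H19, a maternally expressed noncoding RNA, was at 2.25 and 1.34 RPKM in Ainv18ko, against 78.7 and 91.7 in BryGFP (log2 difference −4.96 ± 0.28, limma adjusted p = 8.68e-07). The nearest libraries of the lines were 35-fold apart for H19, 184-fold apart for Grb10 and 287-fold apart for Nnat. Ndn and Peg12, both from the Prader-Willi region, differed far less, with Ndn at 17.9 and 20.2 RPKM in Ainv18ko, against 34.6 and 33.5 in BryGFP.

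Mir675 is processed from H19, and the 2 transcripts moved alike: Mir675 was at 1.61 and 1.4 RPKM in Ainv18ko, against 74.4 and 70.7 in BryGFP (log2 difference −4.88 ± 0.27, limma adjusted p = 7.82e-07). Values at such short genes come from a library of total RNA, so they need not measure the mature microRNA. All 29 microRNA genes in the table were lower in Ainv18ko, where 62.2% of all rows were lower. Of the 29, 19 were listed at 0 in both Ainv18ko libraries. The 16 tested were called lower, as were 56.1% of all tested genes. All but 2 of the 29, Mir675 and the HoxB cluster gene Mir196a-1, lie in the Dlk1-Dio3 locus. The mature sequences of the 4 with the largest differences are given from RefSeq (GRCm38.p6), with the seed, bases 2 to 8, in capitals, because the seed sets which messenger RNAs a microRNA can pair with.
miR-675-3p, chr7:142577078-142577099, minus strand: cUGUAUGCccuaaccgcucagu
miR-675-5p, chr7:142577112-142577133, minus strand: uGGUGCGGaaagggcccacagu
miR-3070-3p, chr12:109587999-109588020, plus strand: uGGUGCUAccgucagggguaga
miR-3070-5p, chr12:109587959-109587981, plus strand: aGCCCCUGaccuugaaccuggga
miR-1906, chr12:109544588-109544609, plus strand: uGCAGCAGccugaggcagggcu
miR-431-3p, chr12:109590502-109590523, plus strand: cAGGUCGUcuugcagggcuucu
miR-431-5p, chr12:109590459-109590479, plus strand: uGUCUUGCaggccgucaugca
The 29 genes gave 53 distinct mature arms with 51 distinct seeds. Only 3 seeds were shared by 2 genes, and the pairs were the 5p arms of miR-379 and miR-1193 and both arms of the neighbouring genes Mir3070a and Mir3070b. The microRNA genes lower in Ainv18ko thus carried mostly distinct seeds.

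The Dlk1-Dio3 locus on chromosome 12 holds maternally expressed noncoding RNAs, among them Meg3, Rian and Mirg, together with clusters of snoRNAs and microRNAs made from them. Of its RNAs 49 were in the table, 27 microRNAs, 19 snoRNAs and 3 long noncoding RNAs, and all 49 were lower in Ainv18ko. All 49 were above 0 in both BryGFP libraries. In Ainv18ko 28 were above 0 in at least 1 library and 17 in both, and for these 17 the fold was between 11.4 and 50.3 with a median of 19.3. Meg3 was at 0.204 and 0.0667 RPKM in Ainv18ko, against 4.64 and 7.86 in BryGFP, Mirg at 0.172 and 0.0306 RPKM in Ainv18ko, against 4.35 and 5.83 in BryGFP, and the long noncoding row of Rian at 1.58 and 0.985 RPKM in Ainv18ko, against 36 and 53.3 in BryGFP. The snoRNA AF357425 was the most abundant member left in Ainv18ko, at 36.7 and 21.7 RPKM in Ainv18ko, against 394 and 490.2 in BryGFP (log2 difference −3.91 ± 0.27, limma adjusted p = 3.26e-06). The microRNA genes Mir431 and Mir432 were listed at 0 in both Ainv18ko libraries, against 13.3 and 5.08 RPKM for Mir431 and 4.8 and 10 for Mir432 in BryGFP. Copies of the SNORD113 family resemble each other closely, so how reads were split among them is uncertain. RNA of the locus was thus reduced in Ainv18ko without being lost throughout. In the iDamko libraries 3 of the 49 were above 0 in at least 1 library.

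Immune GTPases and interferon-inducible genes were low in both lines and lower in Ainv18ko. Lower rows made up 62.2% of the whole table, and 56.1% of all tested genes were called lower. The 3 Gimap genes, GTPases of lymphoid and endothelial cells, were called lower, but Gimap5 and Gimap9 turned round under equalised distributions. Gimap4 was at 2.73 and 2.89 RPKM in Ainv18ko, against 4.87 and 7.92 in BryGFP. Its call was lost under equalised distributions (adjusted p = 0.15) and without BryGFP library 2 (0.0527), and that of Gimap9 without the first library of either line (0.0688 and 0.0823). Of the 6 interferon-inducible genes all were lower, although Irgm2, Slfn5 and Slfn9 turned round under equalised distributions, and Irgm1, a GTPase of cell-autonomous defence, was the 1 tested, at 0.395 and 0.356 RPKM in Ainv18ko, against 1.45 and 2.41 in BryGFP, and lost its call under equalised distributions (adjusted p = 0.102). The 9 Ugt1a rows share exons, so their reads cannot be assigned to 1 of them. All 9 were lower and below the filter.

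Among protein-coding RNAs higher in Ainv18ko, the most abundant was that of a metabolic enzyme. Glul, glutamine synthetase, was at 166 and 359 RPKM in Ainv18ko, against 37.5 and 28.4 in BryGFP (log2 difference 2.86 ± 0.45, limma adjusted p = 0.000483). Its pseudogene Glns-ps1 was also listed, at 49.5 and 95.9 RPKM in Ainv18ko, against 9.41 and 7.67 in BryGFP, and the 2 may share reads. Ccdc141, a centrosome-associated protein of migrating neurons, was at 9.02 and 11 RPKM in Ainv18ko, against 0.591 and 0.945 in BryGFP (log2 difference 2.64 ± 0.21, limma adjusted p = 7.30e-06), with no library of one line near those of the other. The water channel Aqp1 was at 21.8 and 25.2 RPKM in Ainv18ko, against 7.07 and 7.11 in BryGFP, and the water channel Aqp8 at 18.9 and 12.9 RPKM in Ainv18ko, against 4.52 and 3.16 in BryGFP. The chloride channel family member Clic6 was at 15 and 25.1 RPKM in Ainv18ko, against 4.64 and 3.64 in BryGFP, and the membrane proteolipid Gpm6b at 33.6 and 35.2 RPKM in Ainv18ko, against 9.91 and 8.31 in BryGFP. Aldh1a1, which makes retinoic acid, was at 2.51 and 6.35 RPKM in Ainv18ko, against 0.394 and 0.638 in BryGFP, the second Ainv18ko library again the higher. C77370, an X-linked gene now named Nexmif, was at 8.58 and 7.33 RPKM in Ainv18ko, against 1.52 and 1.29 in BryGFP.

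Solute carriers were split, 8 higher and 9 lower of 17, and 7 of the 10 tested were called higher and 3 lower. The zinc exporter Slc30a2 was at 0.42 and 0.625 RPKM in Ainv18ko, against 7.44 and 11 in BryGFP (log2 difference −2.73 ± 0.30, limma adjusted p = 4.75e-05), while the zinc and manganese importer Slc39a8 was at 16.7 and 25.4 RPKM in Ainv18ko, against 8.08 and 8.0 in BryGFP (log2 difference 1.26 ± 0.23, limma adjusted p = 0.00117). The organic anion carrier Slco4a1 fell by 9.51-fold. The sodium-calcium exchanger Slc8a3 rose by 13-fold, at 2.57 and 1.6 RPKM in Ainv18ko, against 0.165 and 0.156 in BryGFP. Amino acid carriers went both ways. The glutamate carrier Slc1a2, at 0.138 and 0.00161 RPKM in Ainv18ko, against 0.643 and 0.665 in BryGFP, and Slc7a8, at 0.106 and 0.0351 RPKM in Ainv18ko, against 0.39 and 0.373 in BryGFP, were lower and under the filter. Those tested were called higher, the glutamate carrier Slc1a3 by 2.34-fold, Slc7a6 by 2.29-fold, the cationic carrier Slc7a1 by 1.72-fold and Slc6a15 by 3.29-fold. The calls of Slc7a1 (adjusted p = 0.0725 and 0.0711) and Slc6a15 (0.217 and 0.131) were lost without Ainv18ko library 2 or BryGFP library 1, and that of Slc6a15 also without BryGFP library 2 (0.0824). The 3 potassium channel genes were also higher, with Kcnq5 the 1 tested, at 4.86 and 6.5 RPKM in Ainv18ko, against 3.39 and 2.7 in BryGFP, a call lost without the second library of either line (adjusted p = 0.0855 and 0.0709).

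Chromosome 14 held 73 of the 622 genes, 69 of them higher in Ainv18ko and 4 lower, whereas 4.11% of annotated protein-coding genes lie there. Higher genes made up 37.8% of the whole table. The 69 higher genes had modest and even folds, with a median of 1.84 and quartiles of 1.68 and 2.18. The 164 genes higher in Ainv18ko on other chromosomes had a median of 3.11-fold and quartiles of 2.34 and 4.73. Among the 64 tested higher genes of chromosome 14, 61 were called, as were 152 of all 156 tested higher genes. Fzd3, Ptk2b and Ctsb, described above, are among the higher genes of chromosome 14. Nefl and Gata4 above lie on it, as do Ero1l, an oxidase of the endoplasmic reticulum, at 26.3 and 25.4 RPKM in Ainv18ko, against 9.28 and 9.91 in BryGFP, and Adk, adenosine kinase, at 88.6 and 190.4 RPKM in Ainv18ko, against 54.4 and 55.3 in BryGFP, whose call was lost without Ainv18ko library 2 (adjusted p = 0.109) or either BryGFP library (0.0723 and 0.0709). The 4 lower genes were Bmp4, Plau, the receptor tyrosine kinase inhibitor Spry2, at 4.26 and 4.39 RPKM in Ainv18ko, against 8.63 and 10.9 in BryGFP, and the amino acid carrier Slc7a8. The number of copies of chromosome 14 in each line was not tested.

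Spread within the lines was larger in Ainv18ko than in BryGFP. Over the tested genes above 0 in both libraries of a line, the higher of the 2 libraries was a median of 1.34 times the lower in Ainv18ko (340 genes) and 1.22 times in BryGFP (360 genes). The 2 libraries were at least 2-fold apart in 41 genes in Ainv18ko, 36 in iDamko, 33 in iDam and 12 in BryGFP, which had the fewest of the 4 lines. The part of low values in these ratios was not tested. Of the 156 tested genes higher in Ainv18ko, 108 had library 2 above library 1 in Ainv18ko, 110 had this in iDamko and 84 in BryGFP. Of the 204 tested lower genes, 75 had it in Ainv18ko, 95 in iDamko and 160 in BryGFP. Across the 360 genes, the difference between library 2 and library 1 in Ainv18ko correlated with that in iDamko (Pearson r = 0.695) and with that in the wild type line iDam (r = 0.516), against an r of 0.008 with that in BryGFP, as a description across genes, which share the same 2 libraries and are not replicates. Fst showed it, at 12.8 and 37.7 RPKM in Ainv18ko and 14.9 and 29 in iDamko, as did Tubb3, at 29.1 and 70.7 in Ainv18ko and 31.7 and 85.3 in iDamko. The opposite order held for Itgb2, at 3.41 and 1.34 in Ainv18ko and 3.47 and 1.19 in iDamko.

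**Figure D3:**
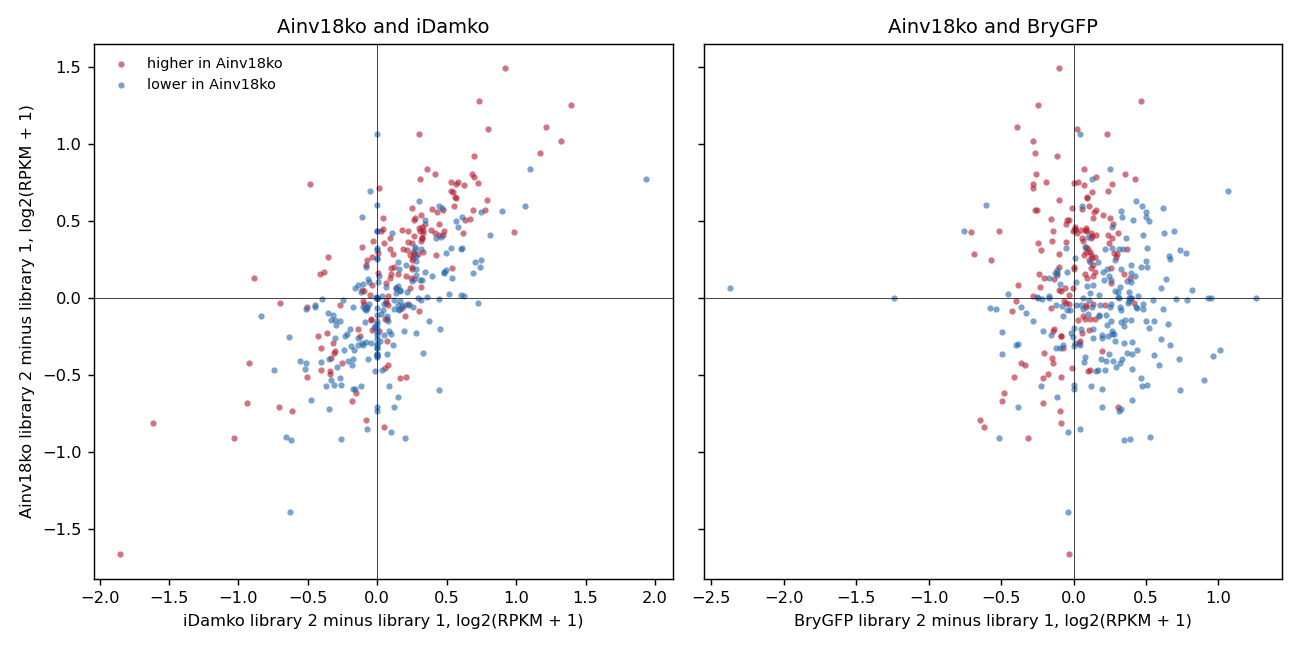
Library 2 minus library 1 in Ainv18ko (vertical axes) against the same difference in iDamko (left) and BryGFP (right), in log2(RPKM + 1), 1 point for each of the 360 tested genes, red where the gene is higher and blue where it is lower in Ainv18ko than in BryGFP. Points rise along the diagonal on the left (r = 0.695) and form a round cloud on the right (r = 0.008).

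The difference between Ainv18ko and BryGFP was itself compared with that between iDamko and iDam. The authors selected the genes on these 8 libraries, for a difference of the knockout lines from each wild type line, so the sign of both differences was fixed and this contrast is not independent of the selection. It was called by limma in 35 of the 360 genes (9.72%), 13 above and 22 below 0, and 83 genes had an unadjusted p under 0.05. Values below 0 mean that Ainv18ko lay further under BryGFP, or less far above it, than iDamko did relative to iDam. Of the 35 genes 14 were Dlk1-Dio3 RNAs, 7 in each direction, out of 36 tested at the locus, where 9.72% of all tested genes were called. The 49 locus RNAs summed to 0.0171 and 0.00306 RPKM in iDamko, against 115.9 and 110.8 in Ainv18ko. They were thus at the floor of the log2(RPKM + 1) scale in iDamko, and the part of this floor in their contrast was not tested. Of the other 21 genes, 15 were below 0 and 6 above. In 19 of these 21 the wild type lines were further apart than the knockout lines, and the same share over all 360 genes was not counted. Over the 360 genes the wild type lines were also further apart. The median absolute log2 difference was 0.346 to 0.433 between libraries of BryGFP and iDam, and 0.136 to 0.299 between libraries of Ainv18ko and iDamko.

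Nnat had the lowest value, −4.13 ± 0.35 (SE, log2 scale, limma adjusted p = 0.000246), and was at 0.131 and 0.0758 RPKM in iDamko, against 1.37 and 0.525 in iDam. The low level was thus shared by iDamko, Ainv18ko and iDam, and BryGFP stood apart. Cdh11 (−2.01 ± 0.36, limma adjusted p = 0.0105) and Pdgfrb (−1.79 ± 0.42, limma adjusted p = 0.0284) had lower levels in iDam than in BryGFP, with Pdgfrb at 0.951 and 0.621 RPKM in iDamko, against 3.36 and 1.66 in iDam. Tubb3 (−2.76 ± 0.68, limma adjusted p = 0.033) was higher in both knockout lines, and its wild type level was 1.82 and 2.09 RPKM in iDam against 18.1 and 15 in BryGFP. H19 (−2.34 ± 0.40, limma adjusted p = 0.00787) was at 7.43 and 4.04 RPKM in iDamko, against 36 and 42.5 in iDam, so both lines of that pair differed from this one. The call held without each of the 4 libraries in turn for 10 of the 35 genes, 7 of them Dlk1-Dio3 RNAs and the others Nnat, Cdh11 and the zinc finger factor Sp6. It was lost for H19 without BryGFP library 2 (adjusted p = 0.0532), for Pdgfrb without Ainv18ko library 2 or either BryGFP library (0.056 to 0.131), and for Tubb3 without Ainv18ko library 1 or either BryGFP library (0.0887 to 0.132).

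Endothelial genes were among those with values above 0. Clec14a (1.53 ± 0.32, limma adjusted p = 0.0222) was at 2.23 and 2.84 RPKM in iDamko, against 17.2 and 12.5 in iDam. Acvrl1 (1.41 ± 0.32, limma adjusted p = 0.026) was at 7.35 and 7.83 in iDamko, against 39 and 41 in iDam. The 2 wild type lines lay further apart than the 2 knockout lines for both genes, with iDam the higher. Aqp1 (1.02 ± 0.27, limma adjusted p = 0.0473) and C77370 (1.26 ± 0.27, limma adjusted p = 0.0222) were raised more in Ainv18ko over BryGFP, with Aqp1 at 19.5 and 21.2 in iDamko, against 14.5 and 12.2 in iDam. Itgb3 and Gfi1, lower in both knockout lines, also lay further below their wild type line in Ainv18ko than in iDamko, by −1.37 ± 0.27 for Itgb3 (limma adjusted p = 0.0172) and −1.03 ± 0.24 for Gfi1 (limma adjusted p = 0.026). Itgb3 was at 0.40 and 0.136 RPKM in iDamko, against 2.4 and 2.08 in iDam, and Gfi1 at 0.289 and 0.198 in iDamko, against 1.8 and 1.4 in iDam. For Fst, Acta2 and Grb10 the contrast was −0.09 ± 0.63, −0.53 ± 0.41 and −0.25 ± 0.35 (SE) and missed the threshold, with limma adjusted p-values of 0.969, 0.576 and 0.863. Leaving out 1 library ended the calls of Clec14a (Ainv18ko 1, Ainv18ko 2 or BryGFP 1, adjusted p = 0.0542 to 0.0721), Acvrl1 (Ainv18ko 1 or either BryGFP library, 0.0651 to 0.0909), Aqp1 and C77370 (each of the 4, 0.0545 to 0.133), Itgb3 (Ainv18ko 2, 0.061) and Gfi1 (Ainv18ko 1 or 2, 0.0793 and 0.061).

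**Figure D4:**
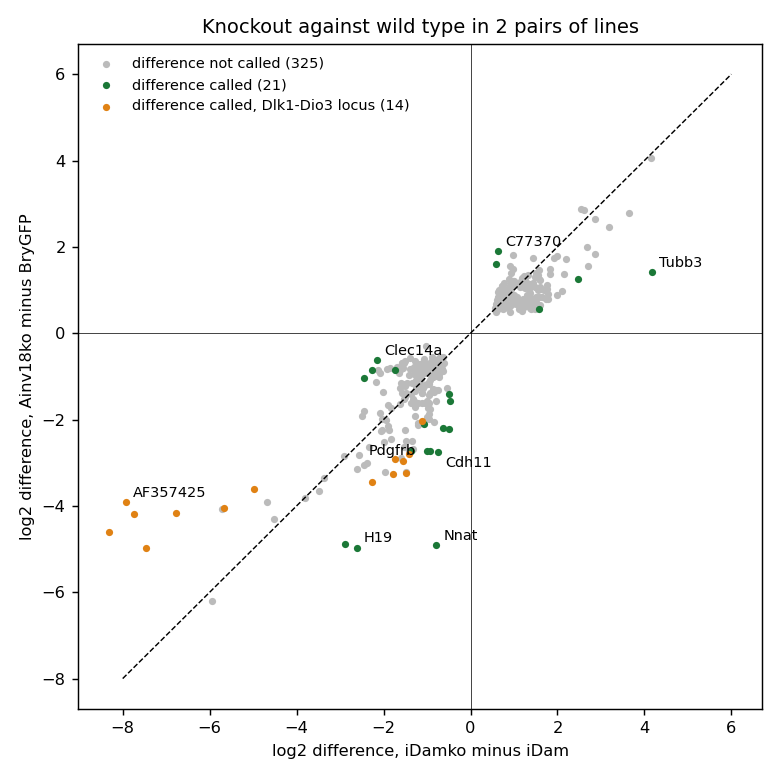
Log2 difference of Ainv18ko minus BryGFP (vertical axis) against that of iDamko minus iDam (horizontal axis) for the 360 tested genes, both on the log2(RPKM + 1) scale, with the dashed line marking equal differences. All genes have the same sign in both pairs, as the selection of the table requires, and the 35 called genes (green, and orange for the Dlk1-Dio3 locus) lie away from the dashed line, Nnat and H19 below it and AF357425 above it.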

How the data were processed

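The authors deposited 1 table of 622 genes with values per library that carry no unit name. They were read as RPKM, since the gene length implied by them and the authors' log2 CPM correlated with annotated exon length (r = 0.913 across 345 genes). The deposited table also holds the authors' log2 fold, p-value and FDR for the knockout lines together against each wild type line. The authors used edgeR (no version) and build mm9, per the submitters' processing notes. Aligner and counting step are not given in the sources used here. Columns named RunxKO without a Dam tag were taken as Ainv18ko, and the 4 knockout columns that stand 2 times with identical values were used once. Implied reads make 83.3% to 100% of the 9 to 21 lowest values used per library whole within 0.06 of a read. For BryGFP library 1 more values were whole at the halved depth (90.5%) than at the one given (85.7%), so its depth is uncertain.

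Log2(RPKM + 1) of the 360 genes averaging 1 RPKM or more was fitted with limma 3.58.1 (trend) in R 4.3.3, with 1 mean for each of 4 lines over 8 libraries and Benjamini-Hochberg adjustment at 0.05. This scale understates the change of weak genes. With 2 libraries a line, an exact permutation test of 1 gene cannot go below p = 0.333 and was not used. Folds are ratios of line means. The design text calls the 2 libraries of a line biological duplicates, and p-values measure the spread between these. On simulated data the fit recovered 82% of genes changed by 1 and 99% of those changed by 2 on the log2 scale for Ainv18ko against BryGFP, with 6 false calls among 160 unchanged genes. For the difference between the pairs it recovered 67% and 93%, with 4 false calls among 160. The simulated noise was normal and independent between genes and libraries, and only Ainv18ko values were changed. Shared deviations of same-numbered libraries and the selection of the genes were left out, so these rates need not hold here. Members and gene lists were chosen with earlier results of these data known. Genes named are the 12 largest called differences in each direction, up to 4 members of each list by size, the 8 largest differences between the pairs in each direction, and all tested genes not called. Other list members, and genes of chromosome 14, were named after their values were seen. Coordinates are those of GENCODE M21 (GRCm38), matched by gene ID for 612 genes, and not those of the authors' build. Alternatives were a pseudocount of 0.1, other filters, quantile normalization, no trend, a replicate block, the 4 libraries alone, and each library left out.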

Additional observations from a re-analysis of the deposited data

Results flagged for a closer look

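For 16 named genes the effect of Ainv18ko against BryGFP differed from that of iDamko against iDam by the test of the difference itself, in limma with Benjamini-Hochberg adjustment. On the log2 scale the difference between the effects was −4.13 ± 0.35 (SE) for Nnat, −2.76 ± 0.68 for Tubb3, −2.34 ± 0.40 for H19 and −1.98 ± 0.38 for the microRNA gene Mir675 made from it. It was −2.01 ± 0.36 for Cdh11, −1.79 ± 0.42 for Pdgfrb and −1.73 ± 0.42 for Slc30a2. For the snoRNAs of the Dlk1-Dio3 locus it was −1.76 ± 0.23 and 3.70 ± 0.34 for 2 copies of SNORD113, and 4.02 ± 0.38 for AF357425. The copy at −1.76 was listed at 0 in both Ainv18ko libraries, against 8.235 and 8.685 RPKM in BryGFP.

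The values above 0 among other genes were 1.53 ± 0.32 for Clec14a, 1.41 ± 0.32 for Acvrl1, 1.41 ± 0.30 for Kctd12b, 1.26 ± 0.27 for C77370, 1.02 ± 0.27 for Aqp1 and 0.88 ± 0.23 for St8sia1. Kctd12b was at 1.9 and 1.9 RPKM in Ainv18ko, against 4.25 and 5.85 in BryGFP, and at 1.7 and 2.32 in iDamko, against 15.7 and 15.1 in iDam. The ganglioside synthase gene St8sia1 was at 0.231 and 0.193 RPKM in Ainv18ko, against 1.28 and 1.1 in BryGFP, and at 0.297 and 0.49 in iDamko, against 3.63 and 3.62 in iDam. The adjusted p-values of the 16 genes lay between 0.000246 and 0.0473. No group had the 4 libraries that a test of single outlying libraries needs.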

How the results depend on the processing

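Of 988 values of the log2 difference for 93 named genes under the alternatives, 924 kept their direction and their side of the threshold, as did 114 of 156 values of the difference between the pairs for 16 genes. At a minimum mean of 5 RPKM, 187 genes were called, 81 of them lower, and 20 differed between the pairs, 6 of them below 0; 190 genes were tested. With no filter 582 genes were called, 364 lower. Calls higher in Ainv18ko made up 42.9% of all calls, 56.7% at that minimum, 37.5% with no filter and 55.6% under quantile normalization. A pseudocount of 0.1 put 13 genes below 0 and 19 above in the difference between the pairs, and 22 of these 32 were among the 35. Quantile normalization called 123 genes lower and put 24 genes above 0 between the pairs; the cause was not tested. Under it 4 genes turned round: Clec14a at 0.0238 (adjusted p = 0.928), Gimap9 at 0.0111 (0.966), Gimap5 at 0.14 (0.486) and Zfp618 at 0.56 (0.00724). Without 1 library, 255 to 317 genes were called, 98 to 137 higher and 155 to 184 lower, and 15 to 24 between the pairs, 6 to 7 above and 9 to 18 below 0, with 1 library then standing for its line. Libraries stayed separated for 513 genes under quantile normalization. The 4 libraries alone gave 353 calls.

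Deviations of same-numbered libraries correlated between Ainv18ko, iDamko and iDam (r = 0.409 to 0.695) but not between BryGFP and any of these (−0.203 to 0.008), and the labels do not say what the number marks, so no pairing was assumed. A replicate block gave 357 calls for the comparison and 53 between the pairs, 21 of them above 0, with all 35 of the fit without it among the 53.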
